A study of Mus musculus with 15 samples.

Results

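Poly(A) RNA was compared between the mouse glioma stem cell line 005 and tumor-derived endothelial cells (TDECs) made from it, on day 2 of differentiation. The libraries labelled 1st_TDEC_2days were set against those labelled 1st005, 3 against 3, which are 6 of the 15 libraries of the series. The 005 cells, which carry GFP, have the strain label C57BL/6 and were kept in a maintenance medium for stem cells without serum. The TDECs came from the same line after 2 days in EGM-2 BulletKit, an endothelial growth medium, at 1% oxygen. Medium, oxygen and time were changed together, so the part of each in a difference cannot be told apart. Both groups come from 1 tumor cell line. Nothing in the labels tells if the replicates were grown as separate cultures, so the p-values measure only the spread between these libraries.

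Cells short of oxygen stop hydroxylating the HIF alpha subunits, which then escape degradation, bind DNA and switch on genes for glucose uptake, glycolysis and blood vessel growth. Glioma stem cells resemble neural and oligodendrocyte progenitors, and Notch, BMP, Wnt and growth factor signals decide which fate such progenitors take. Endothelial cells are marked by VE-cadherin (Cdh5), CD31 (Pecam1), claudin 5 (Cldn5) and the receptors Tie1, Tek and Kdr.

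The libraries held 12049384 to 13642496 counts, and 20247 to 21618 genes had a count. A total of 3 counts in a library, the limit that a count of 0 allows, was 0.223 to 0.259 CPM. CPM, the usual depth-scaled count, used library sizes scaled by the TMM method. Intervals and limits from counts cover counting error only. A fold against a floor of 3 counts takes the count of the other group as exact, so it is no lower limit. In both groups replicate 3 stood apart: the mean chi-square per gene was 11.1 to 11.7 between it and the other libraries of its group, against 2.15 and 2.50 between replicates 1 and 2. Several defining endothelial markers were at or near 0 in TDEC day 2, while the receptors Kdr, Flt1 and Acvrl1, described further on, were low and higher than in 005. Cldn5 had no counts in either group, Tie1 had 2 counts in 005 and 0 on day 2, Cdh5 had 1 and 12, and Pecam1 was measured at 1.06, 1.55 and 1.74 CPM in 005 and 0.788, 1.27 and 1.99 CPM on day 2. The leukocyte and microglia list was as low, at 14.4 to 15.1 CPM summed over its 16 members in 005 and 18.6 to 19.5 CPM on day 2, and 8 members, Tyrobp and the C1q chains among them, had no counts on day 2. The day 2 cells are called by their label here.

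**Figure D1:**
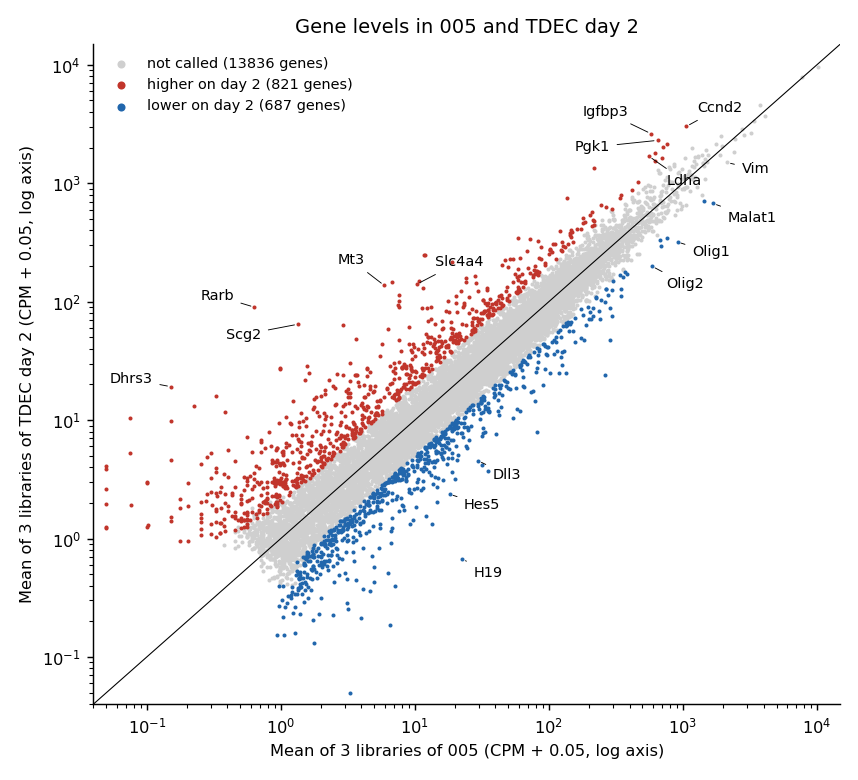
Mean CPM of the 3 libraries of 005 (x axis) and of TDEC day 2 (y axis), both as CPM + 0.05 on log axes, for the 15344 genes tested. The 821 genes called higher on day 2 are red, the 687 called lower are blue, and the line marks equal levels. Rarb and Dhrs3 lie farthest above the line among the labelled genes and H19 farthest below it.

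By day 2, 821 genes were higher and 687 were lower than in 005, of 15344 tested. A gene was called when its adjusted p was under 0.05 in the two-sided quasi-likelihood test of edgeR and its fold change was above 2. The calls were 5.35% of the genes tested in the higher direction and 4.48% in the lower direction, 9.83% in all, and these shares are the background for the gene lists that follow. Without the fold threshold, 2882 genes (18.8%) were higher and 3095 (20.2%) lower, so most differences were smaller than 2-fold. Counts of list members at an adjusted p under 0.05 without the fold threshold have these larger shares as their background. The log2 fold changes had a median of −0.02 over all genes tested, and their quartiles were −0.34 and 0.28. A number in brackets after a gene, or one that a gene "was at" without a unit, is its log2 fold change of TDEC day 2 over 005, and genes said to be higher, lower, to have risen or to have fallen passed both thresholds. The 3 libraries of 005 did not overlap with the 3 of day 2 in 8028 genes, or 52.3%. Protein-coding genes made up 682 of the higher and 475 of the lower calls.

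**Figure D2:**
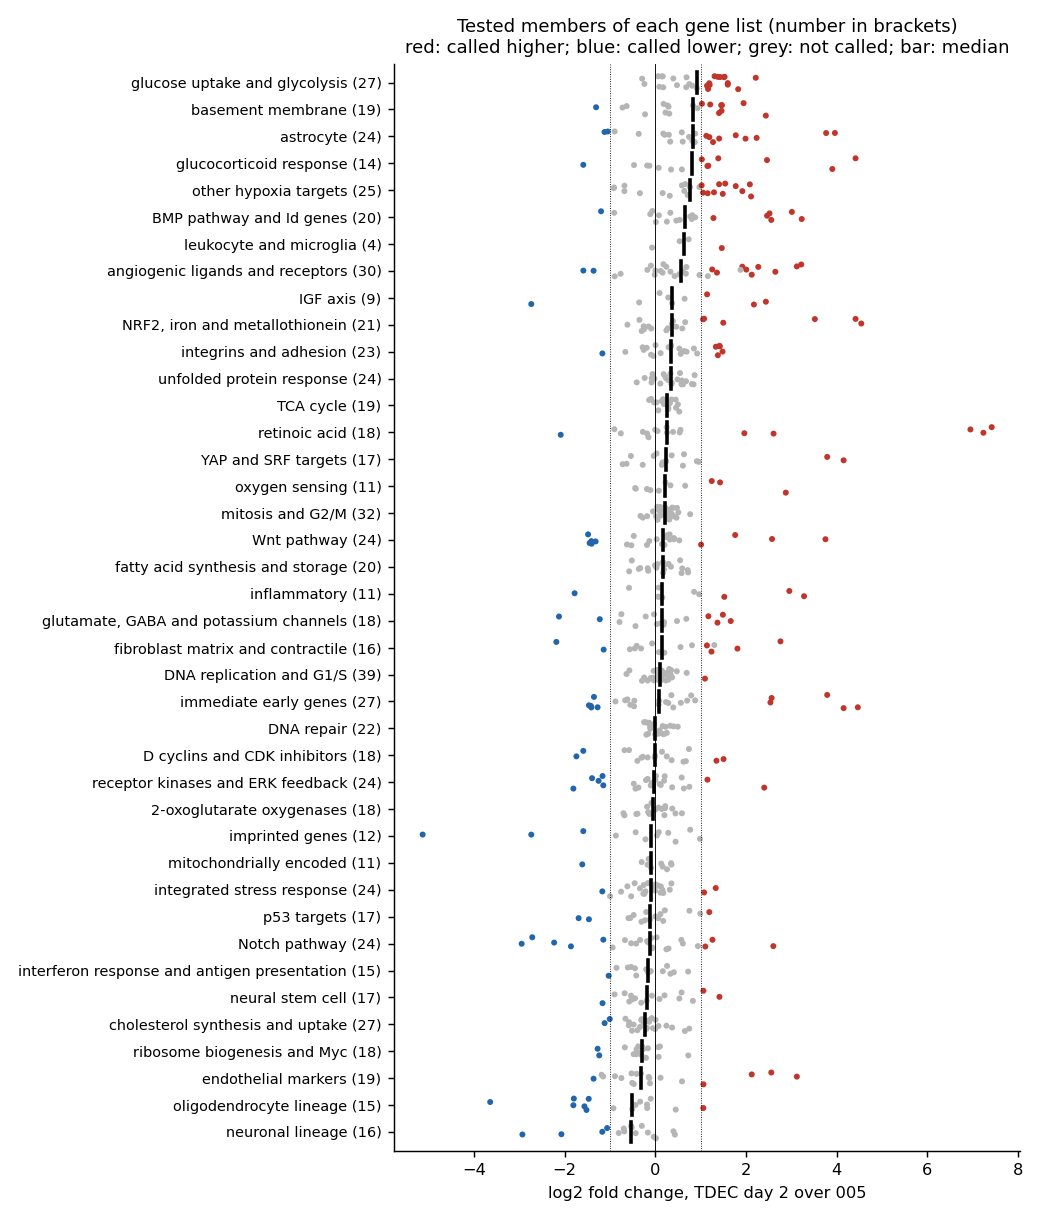
The log2 fold change (TDEC day 2 over 005, x axis) of each tested member of 40 gene lists, ordered by the list median (black bar), with the number tested in brackets. Glycolysis has the highest median, at 0.92, and the neuronal lineage the lowest, at −0.52. The retinoic acid list has a median of 0.26 and holds the points farthest to the right, Dhrs3, Rarb and Stra6, of which Stra6 had no counts in 005, so that its position is set by the fit and is no measured fold.

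Of 27 genes of glucose uptake and glycolysis, all of which were tested, 13 were higher on day 2, 14 were not called and none was lower. The share higher was 48.1% against the background of 5.35%, and the list median was 0.92. Pgk1 (phosphoglycerate kinase, chrX:106187100-106203699, mm10) measured 659.7, 671 and 613 CPM in 005 and 2465, 2501 and 1943 CPM on day 2, log2 fold change 1.83, SE 0.10. Ldha (lactate dehydrogenase A) measured 556, 569 and 548 CPM in 005 and 1755, 1793 and 1524 CPM on day 2, log2 fold change 1.6, SE 0.08. In both genes every day 2 library was above every 005 library, and replicate 3 was the lowest of the day 2 libraries. The largest rise in the pathway was in Pfkfb3, which makes the activator of phosphofructokinase, from 72.8 CPM in 005 and 338 CPM on day 2 (log2 fold change 2.22, SE 0.12, edgeR adjusted p = 3.4e-07).

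Both promoters are shown because they hold the core of the hypoxia response element, the sequence that HIF binds. The 250 bases before the gene start come from RefSeq on build GRCm38.p6, with the cores ACGTG and GCGTG of either strand in capitals.
Pgk1 (chrX:106186850-106187099, plus strand): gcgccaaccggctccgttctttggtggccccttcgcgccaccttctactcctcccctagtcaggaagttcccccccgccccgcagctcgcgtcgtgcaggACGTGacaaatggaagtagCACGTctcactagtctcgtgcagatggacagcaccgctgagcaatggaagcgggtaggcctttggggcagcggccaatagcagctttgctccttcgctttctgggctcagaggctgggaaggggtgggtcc
Ldha (chr7:46845554-46845803, plus strand): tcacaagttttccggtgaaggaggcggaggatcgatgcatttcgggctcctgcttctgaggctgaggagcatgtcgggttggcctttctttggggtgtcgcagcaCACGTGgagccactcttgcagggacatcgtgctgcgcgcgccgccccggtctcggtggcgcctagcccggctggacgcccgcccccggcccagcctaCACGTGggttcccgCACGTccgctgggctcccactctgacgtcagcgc
The Pgk1 window held 2 cores, 150 and 131 bases before the start. The Ldha window held 5 matches, and 4 of them are pairs on opposite strands of CACGTG. Of the 12 glycolysis genes that were called higher and have a promoter in the table, 10 had a core in at least 1 promoter, and of the 14 that were not called 13 had one. Counted by promoter, the shares were 82.4% and 73.9%, so the core did not separate the called genes of this list from the others. Some of the genes not called also rose, below the fold threshold. Among the other targets of low oxygen, given below, 92.9% of 14 promoters of called genes and 62.5% of 16 of the others held it. By gene these were 9 of 10 and 9 of 11, and the difference was not tested. The core was found in 38.6% of all 32851 promoters. The core is short, and a match is a description of the sequence, not a bound site.

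**Figure D3:**
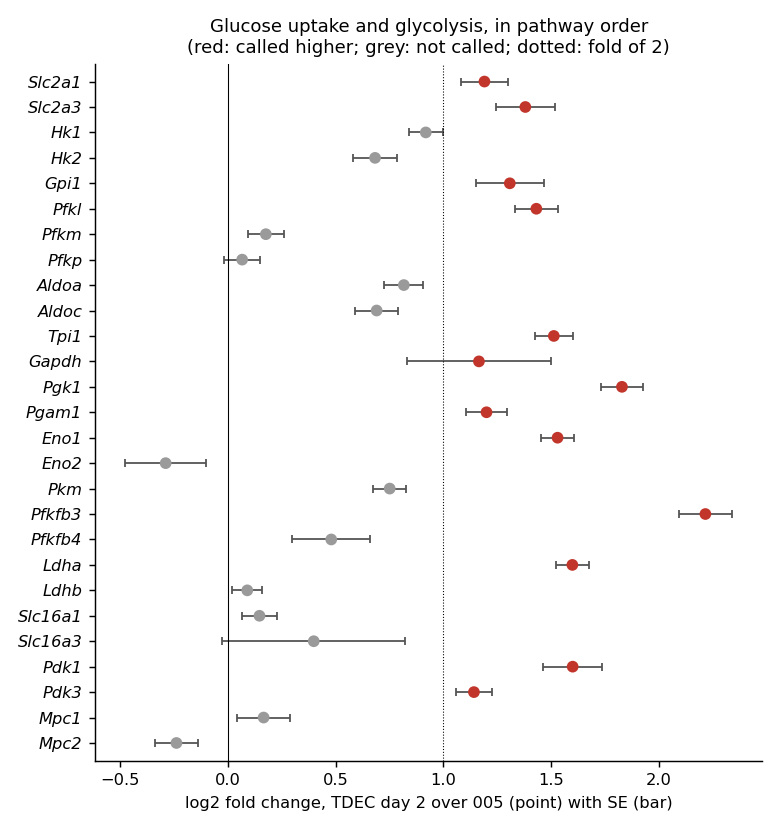
The log2 fold change of TDEC day 2 over 005 (x axis, points, with SE as bars) for 27 genes of glucose uptake and glycolysis in pathway order, called genes in red. Pfkfb3, Pgk1, Ldha and Pdk1 lie to the right, Pfkm, Pfkp and Ldhb lie near 0, and Eno2 and Mpc2 lie below it.

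The rise was uneven along the pathway and between isoenzymes. The glucose transporters Slc2a1 (1.19) and Slc2a3 (1.38) were higher. Hexokinases Hk1 (0.92) and Hk2 (0.68), the aldolases Aldoa (0.82) and Aldoc (0.69) and pyruvate kinase Pkm (0.75) had adjusted p under 0.05 and changes below the fold threshold. Tpi1 (1.51), Pgam1 (1.20), Eno1 (1.53) and Gpi1 (1.31) were higher. Of the phosphofructokinases, Pfkl rose (1.43) while Pfkm (0.18, edgeR adjusted p = 0.12) and Pfkp (0.07, edgeR adjusted p = 0.56) did not pass the test. As levels per length, in CPM per kilobase of exon (RPKM), Pfkl went from 36.5 to 98.6 and Pfkm from 63.5 to 71.8, so that their order changed. Ldhb, the form of lactate dehydrogenase that favours pyruvate, was at 0.09. Pdk1 (1.6) and Pdk3 (1.14), which inactivate pyruvate dehydrogenase, were higher. Gapdh was called higher (1.17), but its groups overlapped, it lost the call in 4 of the 14 alternatives, and its level of 38.1 CPM in 005 and 85.7 CPM on day 2 was far below that of Tpi1 or Aldoa. Gapdh has many pseudogene copies, and how reads that match several places were counted is not given in the sources used here. Of the 19 tested genes of the TCA cycle none was called in either direction, with 11 slightly higher at an adjusted p under 0.05 and a list median of 0.27. At that threshold 18.8% of all genes tested were higher.

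Of 29 other targets of low oxygen 25 were tested, 11 were higher (44%) and none lower, and the median was 0.77. The mitophagy receptor Bnip3 measured 52, 48.9 and 60.4 CPM in 005 and 259, 248 and 178 CPM on day 2, log2 fold change 2.09, SE 0.14. The glycogen branching enzyme Gbe1 (2.11), the vessel peptide adrenomedullin (Adm, 1.92) and the collagen-modifying enzymes P4ha2 (1.78), P4ha1 (1.41) and Plod2 (1.49) were higher. Among the mitochondrial and stress genes, Fam162a (1.54), Ak4 (1.30) and Higd1a (1.16) rose. Ankrd37 (1.02) and the transferrin receptor Tfrc (1.06) were called but lost the call when libraries were scaled by plain totals and without 005 replicate 3. Vegfa, the main growth factor for blood vessels, measured 227, 231 and 297 CPM in 005 and 579, 580.5 and 322 CPM on day 2. Its day 2 libraries were all above 005, with replicate 3 much lower than the others, and its fold of 1.96 fell short of the threshold (log2 fold change 0.97, SE 0.19, edgeR adjusted p = 0.0022). Ndrg1 (−0.91) and Mxi1 (−0.68), which also belong to the list, had negative values below the fold threshold. Car9, a classical marker of low oxygen, had 7 counts in 005 and 15 on day 2 and was not tested.

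Of the 11 genes of oxygen sensing 3 were higher (27.3%, against the background of 5.35%) and none lower. Hif1a measured 321, 321 and 289.6 CPM in 005 and 239, 261 and 322 CPM on day 2, so that the groups overlapped (log2 fold change −0.18, SE 0.11, edgeR adjusted p = 0.19). Epas1, which encodes HIF-2 alpha, measured 18.3, 19.5 and 17.6 CPM in 005 and 54, 43.4 and 52.1 CPM on day 2, log2 fold change 1.43, SE 0.11. The prolyl hydroxylase Egln3, itself a HIF target, measured 38.4, 42 and 40.5 CPM in 005 and 108, 101 and 77.9 CPM on day 2, log2 fold change 1.25, SE 0.12. Hif3a was called higher from a low level, 0.203 CPM in 005 and 1.55 CPM on day 2. Per length, Hif1a remained far above Epas1, at 46.5 against 8.92 RPKM on day 2. None of the 18 oxygen-dependent demethylases and related 2-oxoglutarate oxygenases was called in either direction, with 7 at an adjusted p under 0.05 and a median of −0.04.

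The retinoic acid list held Dhrs3 and Rarb, the members with the largest log2 fold changes of all lists. Retinoic acid, made from vitamin A, acts through the nuclear receptors RAR and RXR, and its own receptor Rarb and the enzymes that store or degrade it are classical direct targets. Of the 28 members 18 were tested, 5 were higher (27.8%) and 1 lower, with a median of 0.26. Rarb (chr14:16430842-16575472, minus strand, mm10) measured 0.228, 0.773 and 0.755 CPM in 005 and 78.6, 75.8 and 115 CPM on day 2, a fold of 151 (log2 fold change 7.24, SE 0.28, edgeR adjusted p = 3.9e-08). Dhrs3, which reduces retinal to retinol, measured 0.152, 0.0773 and 0.0755 CPM in 005 and 22, 15.9 and 19.4 CPM on day 2, a fold of 172 (log2 fold change 7.42, SE 0.32). No 005 library came near any day 2 library in these genes. Stra6, the retinol uptake receptor, had no counts in 005 and 45 on day 2, 15.7-fold higher when 3 counts over the 005 libraries are taken as the floor. Cyp26b1, which degrades retinoic acid, measured 0.683, 0.618 and 0.302 CPM in 005 and 2.92, 2.24 and 4.83 CPM on day 2, log2 fold change 2.61, SE 0.43.

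The promoters of Rarb and of Cyp26a1, a second enzyme that degrades retinoic acid, are shown because they alone, of the 20 members with a promoter in the table, held a full response element. It was searched on both strands as a pair of the letters GGTCA or GTTCA in the same direction with 6 bases between them, and is in capitals in the 250 bases before the gene start (RefSeq, GRCm38.p6).
Rarb (chr14:16575477-16575726, minus strand): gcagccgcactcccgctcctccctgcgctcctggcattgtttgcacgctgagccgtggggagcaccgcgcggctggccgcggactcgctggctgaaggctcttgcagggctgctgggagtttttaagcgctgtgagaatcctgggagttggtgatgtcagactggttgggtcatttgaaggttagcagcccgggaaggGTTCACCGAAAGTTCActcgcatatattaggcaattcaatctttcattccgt
Cyp26a1 (chr19:37697558-37697807, plus strand): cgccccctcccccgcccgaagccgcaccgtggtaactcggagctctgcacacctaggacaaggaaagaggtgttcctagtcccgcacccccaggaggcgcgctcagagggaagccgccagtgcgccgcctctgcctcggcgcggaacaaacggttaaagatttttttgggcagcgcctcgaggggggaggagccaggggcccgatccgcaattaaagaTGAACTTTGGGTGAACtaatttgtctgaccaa
The element began 52 bases before the start of Rarb and 32 bases before that of Cyp26a1, where it lies on the opposite strand. It was found in 2 of the 34 promoters of the list and in 0.21% of all 32851 promoters. Cyp26a1 had 0 counts in 005 and 35 on day 2, too few for the filter, and was 12.2-fold higher against the same floor. The windows of Dhrs3, Stra6 and Cyp26b1 do not hold these letters.

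Not every gene of the pathway moved. The transglutaminase Tgm2 rose (1.97). The other receptors were at 0.26 for Rara, 0.25 for Rarg and −0.15 for Rxra, none past the test, so that Rarb went from 0.111 RPKM, below Rara and Rarg, to 17.1 RPKM, above their 7.54 and 6.32. Rxrb (−0.76) and Aldh1a3 (−0.90), an enzyme that makes retinoic acid, had negative values below the fold threshold. Crabp2, which carries retinoic acid to its receptor, was called lower (−2.09) from 1.82 CPM in 005 and 0.417 CPM on day 2, and lost the call without 005 replicate 3 or day 2 replicate 2. Crabp1 had 1 count in 005 and 21 on day 2, a ratio of 21.9 with a counting interval of 3.53 to 907. The target Meis1 (0.54) was not called.

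Of the 14 tested genes of the glucocorticoid response list 7 were higher and 1 was lower, with a median of 0.81. The list also holds the glucocorticoid receptor, and all calls of the list were among its 12 tested targets. Klf9, a transcription factor and direct target of the receptor, measured 25.1, 21.7 and 19.6 CPM in 005 and 139, 128 and 99.8 CPM on day 2, log2 fold change 2.46, SE 0.14. Fkbp5, a chaperone that dampens the receptor, measured 86, 87.7 and 88.6 CPM in 005 and 236, 217 and 235 CPM on day 2, log2 fold change 1.39, SE 0.07. The clock gene Per1 (1.17), the ERBB inhibitor Errfi1 (1.15) and the sulfotransferase Sult1a1 (3.91) were higher, as was the kinase Sgk1 (1.03), which lost the call under plain totals and without day 2 replicate 3. Tsc22d3, usually among the strongest targets, was at −0.18 (edgeR adjusted p = 0.15), and Zbtb16 at −0.13. The receptor itself, Nr3c1, was at 0.35. Mt2 and Cdkn1c, which other lists also hold, were the remaining higher call and the lower one.

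The metallothioneins, small proteins that bind zinc and copper, rose most among the NRF2, iron and metal genes. Mt3 measured 5.24, 4.79 and 7.55 CPM in 005 and 128, 122 and 162 CPM on day 2, log2 fold change 4.55, SE 0.17. Mt1 measured 16.2, 14.5 and 25.8 CPM in 005 and 214, 199 and 237 CPM on day 2, log2 fold change 3.52, SE 0.18. Mt2 measured 8.58, 10.4 and 15.9 CPM in 005 and 197, 173 and 377 CPM on day 2, log2 fold change 4.42, SE 0.31. In each of the 3 genes day 2 replicate 3 was the highest and the groups were far apart. They are neighbours on chromosome 8, with Mt3 at chr8:94152607-94154146, Mt2 at chr8:94172664-94173568 and Mt1 at chr8:94179082-94180327 (mm10). Mt2 is overlapped on the other strand by the antisense gene RP23-98C9.5, whose counts were 115, 138, 212, 2500, 2325 and 4390 in the 6 libraries against 113, 135, 210, 2500, 2324 and 4367 for Mt2. Reads of the overlapping genes can therefore not be told apart in these counts, and the antisense gene is not read as a separate result. It was not removed from the totals of called genes. Those totals hold 33 antisense genes among the higher calls and 53 among the lower, and their overlaps were not examined. Among the other 18 tested genes of the list, heme oxygenase Hmox1 (1.5), Tfrc and the cystine transporter Slc7a11 (1.08, not called without day 2 replicate 1 or 2) were higher and none was lower, while Nqo1 was at −0.25 and Gclc at −0.26. Slc30a1, a zinc exporter, was at −0.61.

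**Figure D4:**
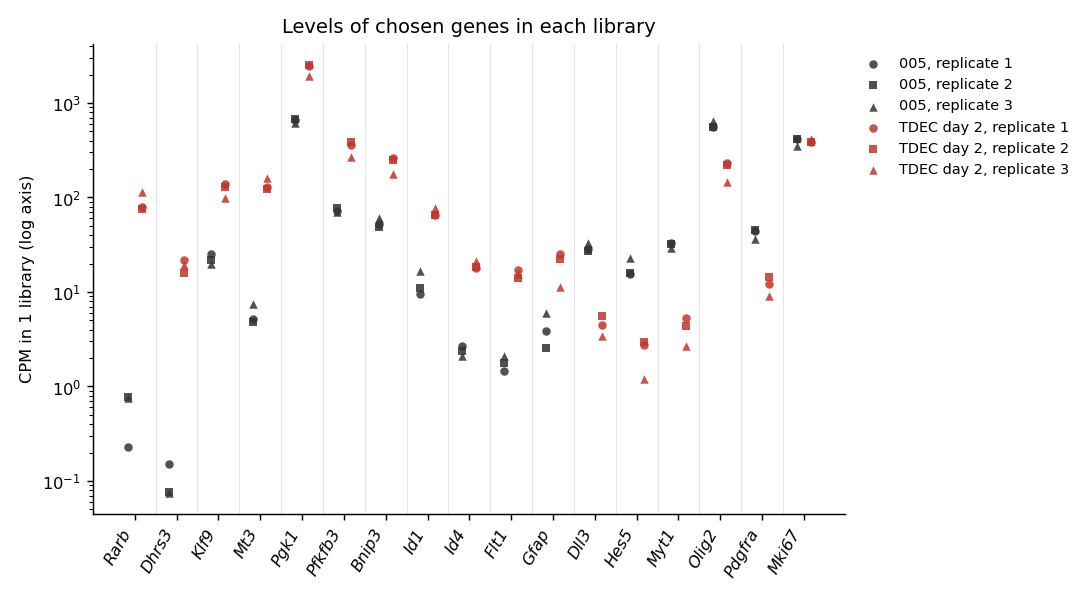
CPM in each library (y axis, log) for 17 genes, with 005 in black and TDEC day 2 in red and a marker shape for each replicate. Rarb to Gfap are higher and Dll3 to Pdgfra lower in every day 2 library, while Mki67 overlaps between the groups.

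Of the 20 tested genes of the BMP pathway and its targets 6 were higher and 1 lower, with a median of 0.66, and of the 4 targets, the Id genes, 3 were higher. The Id genes encode inhibitors of the bHLH factors that drive neuronal and oligodendrocyte differentiation. Id1 measured 9.49, 11 and 16.8 CPM in 005 and 65.2, 64.6 and 76.7 CPM on day 2, log2 fold change 2.47, SE 0.17. Id4 measured 2.66, 2.4 and 2.11 CPM in 005 and 18.1, 18.5 and 21.5 CPM on day 2, log2 fold change 3.01, SE 0.17. Id3 was higher (log2 fold change 1.28, SE 0.09) and Id2 below the fold threshold (log2 fold change 0.82, SE 0.08). In none of the 4 Id genes did the groups overlap, which also held for 52.3% of all genes tested. The feedback inhibitors Smad6 (3.23) and Bambi (2.52) rose, as did the endothelial receptor Acvrl1 (ALK1), at 1.44, 2.09 and 0.981 CPM in 005 and 8.59, 10.4 and 7.68 CPM on day 2. Smad1 (−0.11), Smad5 (0.01) and Bmpr2 (−0.06), which carry the signal, did not pass the test. Bmp7 was at −0.91, below the fold threshold, and Bmp2 had 1.24 CPM in 005 and 1.31 CPM on day 2. The antagonist Chrd was called lower (−1.20) and lost the call without 005 replicate 3.

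The Notch pathway divided by role, with 3 of 24 tested genes higher and 5 lower and a median of −0.12. The delta ligands fell. Dll1 measured 56.2, 62.1 and 55.3 CPM in 005 and 13.2, 14.2 and 9.5 CPM on day 2, log2 fold change −2.23, SE 0.14, and Dll3 measured 28.7, 27.1 and 33.1 CPM in 005 and 4.49, 5.52 and 3.45 CPM on day 2, log2 fold change −2.71, SE 0.17. Jag2 was called lower (−1.15) and lost the call without 005 replicate 3 or day 2 replicate 2, while Jag1 had a positive value of 0.58, below the fold threshold. The target Hes5 measured 15.5, 16.1 and 22.9 CPM in 005 and 2.76, 2.98 and 1.21 CPM on day 2, log2 fold change −2.95, SE 0.27. The targets Hes1 (log2 fold change 0.25, SE 0.09, edgeR adjusted p = 0.053) and Hey1 (log2 fold change 0.29, SE 0.18, edgeR adjusted p = 0.21) did not pass the test. On the receptor side, Notch4, an endothelial form, rose from a low level at 1.06, 1.08 and 0.981 CPM in 005 and 6.7, 5.67 and 6.82 CPM on day 2, Notch2 was called higher (1.10) but not without day 2 replicate 3, Notch3 had 0.94 and Notch1 −0.06. Of the glycosyltransferases that tune ligand choice, Lfng rose (1.26) and Mfng fell (−1.86). Per length Notch1 led in 005, at 18.3 RPKM against 10.7 for Notch3, and on day 2 Notch3 was at 20.6 against 17.5.

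Of the 15 tested genes of the oligodendrocyte lineage 6 were lower, 1 was higher and 8 were not called, with a median of −0.51, and the background share of lower calls was 4.48%. Among the 5 tested progenitor markers 4 were lower, and the higher call was among the differentiated genes. Of the 4 tested differentiated genes, 2 had positive and 2 negative values, with a median of 0.18. Among members too low to test, Mbp had 14 counts in 005 and 40 on day 2, and Enpp6 had 7 and 37. Sox10 had 13 and 1, Mog 17 and 16, and Mag and Neu4 had no counts. In RNA from whole cultures, fewer cells of a type and less RNA per cell cannot be told apart. Olig2, the factor that specifies the lineage, measured 559.7, 559 and 646 CPM in 005 and 229, 223 and 145 CPM on day 2, log2 fold change −1.56, SE 0.15. Olig1 measured 863, 878 and 999.5 CPM in 005 and 363, 369 and 224 CPM on day 2, log2 fold change −1.52, SE 0.16. Pdgfra, the receptor that keeps progenitors dividing, measured 43.7, 45.3 and 36.5 CPM in 005 and 12.1, 14.5 and 9.06 CPM on day 2, log2 fold change −1.81, SE 0.16. Cspg4 (NG2) measured 87.4, 81.9 and 113 CPM in 005 and 24.9, 33.2 and 23.1 CPM on day 2, log2 fold change −1.80, SE 0.15. In all 4 genes the day 2 libraries lay below the 005 libraries and day 2 replicate 3 was the lowest. Lhfpl3 (−1.47) and Gpr17 (−3.64, from 2.41 CPM in 005 and 0.174 CPM on day 2) also fell. Nkx2-2 (−0.92) and Sox8 (−0.51) had negative values below the fold threshold, and the myelin factor Myrf (−0.18) did not pass the test. Bcas1 was called higher (1.06), though not under plain totals.

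Of the 24 tested astrocyte genes 9 were higher, 2 were lower and 13 were not called, with a median of 0.83. Gfap, the filament of astrocytes, measured 3.87, 2.55 and 6.04 CPM in 005 and 25.1, 22.2 and 11.4 CPM on day 2, log2 fold change 2.24, SE 0.33. Slc4a4, a bicarbonate transporter, measured 11.2, 11.3 and 8.3 CPM in 005 and 128, 131 and 162 CPM on day 2, log2 fold change 3.77, SE 0.14. Glul, which makes glutamine from glutamate, measured 205, 200.4 and 199 CPM in 005 and 524, 522 and 559.8 CPM on day 2, log2 fold change 1.41, SE 0.07. The small heat shock protein Cryab measured 1.14, 0.927 and 2.64 CPM in 005 and 12.7, 15.7 and 46.1 CPM on day 2, and replicate 3 carried much of its rise. Hepacam (1.99), Agt (1.78), the glutamate transporter Slc1a2 (1.27), Acsbg1 (1.19) and Clu (1.13) were higher, and Slc1a3 (0.83) and Sparcl1 (0.87) lay below the fold threshold. The members did not move as a block. Aqp4 (log2 fold change 0.88, SE 0.45, edgeR adjusted p = 0.15), Aldh1l1 (0.61) and S100b (0.18) did not pass the test, and the factor Sox9 was called lower (−1.05), as was Atp1b2 (−1.12), though neither without day 2 replicate 3. Nfia was at −0.89. The potassium channel Kcnj10, which astrocytes use to clear potassium, rose (1.67).

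Neuronal genes were lower in 4 of the 16 tested and higher in none, with a median of −0.52. Myt1, a factor of newborn neurons and oligodendrocytes, measured 33.1, 32.3 and 29 CPM in 005 and 5.28, 4.33 and 2.68 CPM on day 2, log2 fold change −2.93, SE 0.19. Rbfox3 (NeuN) had 1.14 CPM in 005 and 0.262 CPM on day 2 and Syt1 −1.06, a call lost without 005 replicate 1 or day 2 replicate 1 or 2. Sox4 (−0.81), Sox11 (−0.52) and Dcx (−0.43) had negative values below the fold threshold, and Map2 was at 0.01. The AMPA receptor subunits Gria2 (1.17), Gria3 (1.37) and Gria4 (1.49) rose, while the kainate receptor Grik3 fell (−2.12) and Gabra2 was called lower (−1.22), except without replicate 3 of both groups. In all, 4 of the 18 tested genes of glutamate, GABA and potassium channels were higher and 2 lower.

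The stem cell markers of 005 were still expressed on day 2. Of 17 tested, 2 were higher and 1 lower, with a median of −0.19. Sox2 measured 321, 302 and 326 CPM in 005 and 264, 274 and 229.7 CPM on day 2, log2 fold change −0.31, SE 0.08. Nestin (Nes, −0.68), vimentin (Vim, −0.51), Msi1 (−0.57) and Nr2e1 (−0.90) had adjusted p under 0.05 and negative values below the fold threshold. Prom1 (CD133), often used to sort glioma stem cells, measured 29.2, 28.7 and 23.6 CPM in 005 and 78, 83.8 and 55.2 CPM on day 2, log2 fold change 1.42, SE 0.15, and was higher in every day 2 library. Fabp7 was called higher (1.06), though not without 005 replicate 3. Pou5f1 (Oct4) had no counts in any of the 6 libraries. Egfr measured 31.7, 31.1 and 30.2 CPM in 005 and 14.3, 14.4 and 12.9 CPM on day 2, log2 fold change −1.16, SE 0.11.

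Some other growth factor receptors fell with Egfr. Of 11 tested receptors 4 were lower and 1 was higher, 7 had positive and 4 negative values, and the median was 0.02. Among 24 tested receptor kinases and ERK feedback genes 2 were higher and 5 lower, with a median of −0.04. Ntrk2 (−1.25), Erbb4 (−1.39) and Pdgfra fell. Errfi1 was higher, and Met, the receptor for hepatocyte growth factor, rose, at 2.66, 2.32 and 2.49 CPM in 005 and 9.53, 9.92 and 20.4 CPM on day 2, log2 fold change 2.40, SE 0.31. The 10 feedback genes of ERK signalling went both ways, with 1 called higher, 1 called lower and a median of −0.09. At an adjusted p under 0.05 without the fold threshold, 3 were higher and 3 lower. Dusp6 was at 0.12, Spry2 at −0.17 and Spry4 at −0.20, while Dusp5 was called lower (−1.15) except without 005 replicate 3.

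The immediate early genes went both ways, with 5 of 27 tested higher, 5 lower and a median of 0.09. Fos measured 21.1, 18.2 and 44.8 CPM in 005 and 205, 197 and 97.4 CPM on day 2, log2 fold change 2.57, SE 0.33. Fosb measured 2.05, 2.94 and 3.55 CPM in 005 and 68.6, 76.2 and 44.7 CPM on day 2, log2 fold change 4.47, SE 0.24. Egr1 measured 56.3, 51.9 and 68.3 CPM in 005 and 395, 378 and 255 CPM on day 2, log2 fold change 2.54, SE 0.16. In these 3 genes day 2 replicate 3 was the lowest of its group and still above all 005 libraries. Cyr61, a target of the coactivator YAP, measured 9.26, 10 and 13.1 CPM in 005 and 125, 125 and 199.7 CPM on day 2, log2 fold change 3.79, SE 0.20, and Ctgf rose from 6 counts in 005 (4.16). Against them, Myc measured 218, 215 and 203 CPM in 005 and 88, 95 and 80.2 CPM on day 2, log2 fold change −1.27, SE 0.08, and Klf2 (−1.35), Btg2 (−1.46), Fosl1 (−1.42) and Klf4 (−1.41, not called without replicate 3 of both groups) were lower. Egr3 (log2 fold change 0.36, SE 0.56, edgeR adjusted p = 0.65), Junb (0.09) and Jun (−0.46) were not called. Outside Cyr61 and Ctgf, none of the other 15 tested YAP and SRF targets was called, with Axl at 0.36, Vcl at 0.96 and Actb at −0.04. Myc (−1.27) and Mycl (−1.24, not without replicate 3 of both groups) were the calls among 18 genes of ribosome biogenesis and Myc, where 10 were lower at an adjusted p under 0.05 and the median was −0.30. At that threshold 20.2% of all genes tested were lower. The list summed to 4350, 4234 and 3671 CPM in 005 and 3661, 3568 and 4425 CPM on day 2. Day 2 replicate 3 was thus above all 005 libraries.

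Wnt genes went both ways, with 4 of 24 tested higher, 5 lower and a median of 0.18. The secreted inhibitor Wif1 measured 0.38, 0.309 and 0.151 CPM in 005 and 3.47, 4.33 and 3.88 CPM on day 2, log2 fold change 3.75, SE 0.38. Dkk3 (2.58) and the receptor Fzd6 (1.76) rose from low levels, and Wnt5b (1.01) was called higher except under plain totals, without 005 replicate 2 and without day 2 replicate 1. The ligands Wnt7a (30.2, 30.1 and 33.6 CPM in 005 and 11.7, 15 and 7.51 CPM on day 2, log2 fold change −1.45, SE 0.20) and Wnt7b (−1.41), which act on brain endothelial cells, fell. The targets Lef1 (−1.48) and Nkd1 (−1.40) fell and Axin2 was at −0.13 (edgeR adjusted p = 0.57). Fzd9 was called lower (−1.31), though not without replicate 3 of both groups.

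Of 35 endothelial markers 19 were tested, 4 were higher (21.1%, against the background of 5.35%) and 1 lower, and the median was −0.31. All 4 were among the 6 tested receptors, and 7 markers were higher when all 15 libraries were fitted together. Flt1 (VEGF receptor 1) measured 1.44, 1.78 and 2.11 CPM in 005 and 16.9, 14.2 and 15.6 CPM on day 2, log2 fold change 3.12, SE 0.20. Kdr (VEGF receptor 2) measured 1.22, 0.773 and 1.81 CPM in 005 and 4.02, 3.36 and 9.5 CPM on day 2, log2 fold change 2.13, SE 0.45, with replicate 3 well above the other day 2 libraries. Acvrl1, given above, was higher, and S1pr1 was called higher (1.06) but not under plain totals or without 005 replicate 1 or 2. Ramp2, which pairs with the adrenomedullin receptor Calcrl, fell (−1.36), and Calcrl was at 0.12. Vwf (−0.75), Cd34 (−0.31), Egfl7 (−0.51) and Pecam1 (−0.12) did not pass the test. Ets1 was at −0.89, and of the 5 tested endothelial transcription factors 4 had negative values and none was called. Among those too low to test, Erg had 7 counts in 005 and 1 on day 2 and Sox18 had 6 and 1. Sox7 had 3 and 3, and Lyl1 had 5 and 6. Emcn had 0 counts in 005 and 18 on day 2, 6.27-fold above a floor of 3 counts over the 005 libraries. Robo4 had 0 and 16, 5.57-fold above the same floor. Summed over the list, the level was 294 to 315 CPM in 005 and 276 to 283 CPM on day 2.

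Set against mouse brain microvascular endothelial cells (MBMECs) of the same series, these levels were low. With all 15 libraries scaled together, the median marker stood at 0.239% of its MBMEC level on day 2 and at 0.196% in 005. Of the 35 markers 23 were under 1% of MBMEC on day 2, and 3 reached 10%, which were Ets1, Lmo2 and Calcrl. Flt1 went from 0.959% in 005 to 8.49% on day 2, Kdr from 0.196% to 0.879% and Acvrl1 from 0.23% to 1.38%. Pecam1 was at 0.104% and 0.0974%. MBMECs were grown in another medium, and no test was made against them.

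**Figure D5:**
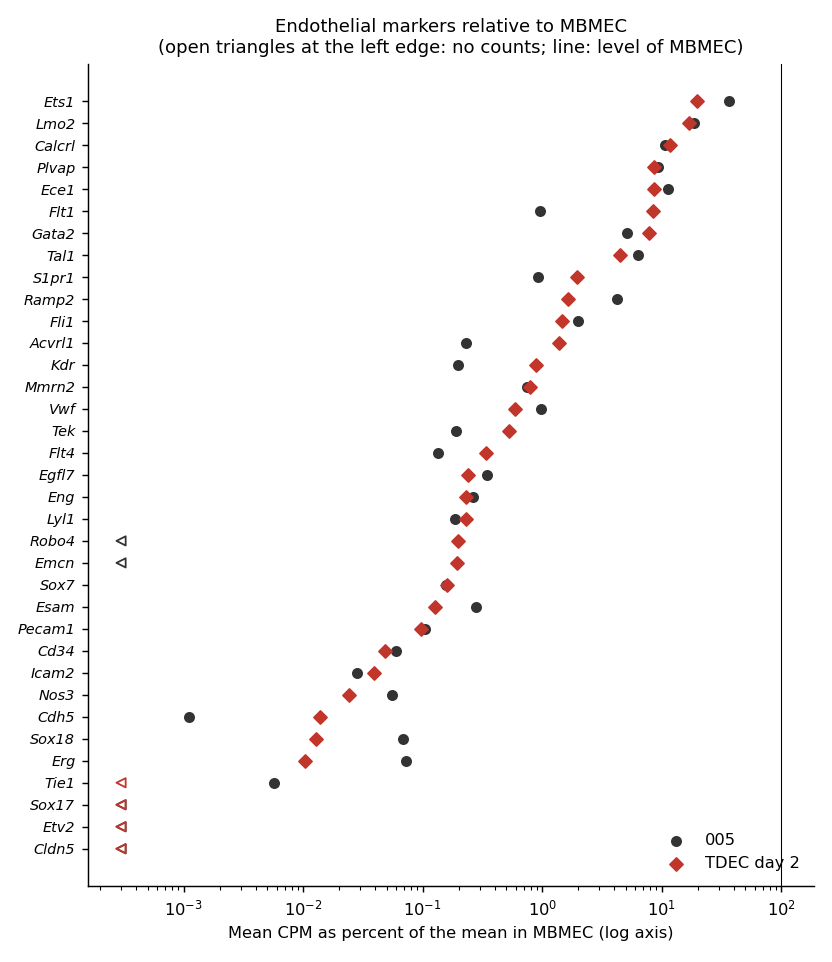
Mean CPM of 35 endothelial markers in 005 (black circles) and TDEC day 2 (red diamonds) as percent of the mean in MBMEC, on a log x axis, with open triangles where a group had no counts. Flt1, Acvrl1, Kdr, Cdh5, Emcn and Robo4 lie to the right of 005 on day 2, while Ramp2, Erg and Sox18 lie to its left. All markers lie below the MBMEC level.

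Ligands and receptors of vessel growth rose in 9 of the 30 tested of 40 members (30%) and fell in 2, with a median of 0.57. The guidance ligand Sema3e measured 7.59, 5.87 and 5.44 CPM in 005 and 50.1, 50.8 and 75.8 CPM on day 2, log2 fold change 3.22, SE 0.19. Efnb2, an arterial ephrin, measured 17.5, 16.8 and 16.9 CPM in 005 and 71.5, 67.9 and 108 CPM on day 2, log2 fold change 2.27, SE 0.17. The VEGF coreceptor Nrp1 measured 13.8, 15.1 and 8.38 CPM in 005 and 45, 51.5 and 53.4 CPM on day 2, log2 fold change 2.01, SE 0.18, whereas Nrp2 was at 0.00. The VEGF relative Pgf (1.26) and the vessel inhibitor Serpinf1 (PEDF, 2.65) rose with Adm, Flt1 and Kdr, and Hbegf was called higher (1.36) except without day 2 replicate 3. The ephrin Efna1 fell (−1.59), as did Ramp2, and Vegfb was at −0.76. Angpt2, which loosens vessels, measured 52.3, 55.3 and 79.6 CPM in 005 and 52.8, 54.1 and 59.2 CPM on day 2, and the groups overlapped (log2 fold change −0.17, SE 0.14, edgeR adjusted p = 0.36). Tek, the receptor of the angiopoietins, had 5 counts in 005 and 13 on day 2 and was not tested.

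Of the 19 tested basement membrane genes of 25, 8 were higher (42.1%), 1 was lower and 10 were not called, with a median of 0.83. Lama4, the laminin chain of vessels, measured 65.4, 62.9 and 54.5 CPM in 005 and 219, 213 and 275 CPM on day 2, log2 fold change 1.95, SE 0.11, and passed Lama5 per length, at 19.5 against 16.0 RPKM, from 5.05 against 13.1 in 005. Nid1 (1.47), Nid2 (1.41) and Col4a5 (1.46) rose, and fibronectin (Fn1) measured 118, 112 and 76 CPM in 005 and 263, 279 and 299.6 CPM on day 2, log2 fold change 1.46, SE 0.14. Lamb1 (1.21) and Lamc1 (1.03) were called higher but not without day 2 replicate 3, and the lower call of Lamb3 (−1.31) was lost without 005 replicate 3. Col4a1 (−0.63) and Agrn (−0.72) had negative values below the fold threshold. The integrin chains Itgav (1.34), Itga1 (1.48) and Itga2 (1.42) and N-cadherin (Cdh2, 1.42) rose, Itga3 was called higher (1.38) except without day 2 replicate 3, and Itga9 fell (−1.17), which makes 5 higher and 1 lower of 23 tested. The transcription factors of mesenchymal change Snai1 (0.69), Twist1 (−0.04), Zeb1 (−0.28) and Zeb2 (0.56) were not called.

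Of 30 markers of fibroblasts and mural cells 16 were tested, 4 were higher (25%, against the background of 5.35%) and 2 lower, with a median of 0.14. Myl9 (1.81), Col5a1 (1.14) and Fbln5 (1.24) rose, Rgs5 rose (2.76) at low levels, 0.204 CPM in 005 and 1.44 CPM on day 2, and Col3a1 (−2.18) and tenascin C (Tnc, −1.14) fell. Acta2 had 1 count in 005 and 42 on day 2, a ratio of 43.9 with a counting interval of 7.45 to 1770. The summed level of the list was 1192 to 1269 CPM in 005 and 859 to 1009 CPM on day 2, most of it from Tnc and Tpm1. Whether cells of another kind were present was not tested.

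Few genes of the dividing cell were called on day 2. Of 39 genes of DNA replication 1 was higher, Rfc3 (60.8, 59.6 and 55.3 CPM in 005 and 120.5, 119 and 136 CPM on day 2), and of 32 genes of mitosis none was called in either direction, with 14 slightly higher and 2 slightly lower at an adjusted p under 0.05. At that threshold 18.8% of all genes tested were higher and 20.2% lower. The medians were 0.11 and 0.22. Mki67, the common marker of dividing cells, measured 412, 414 and 351 CPM in 005 and 382, 391 and 418 CPM on day 2, and its groups overlapped (log2 fold change 0.02, SE 0.08, edgeR adjusted p = 0.89). Top2a measured 889, 891 and 714 CPM in 005 and 1011, 1035 and 1043 CPM on day 2, below the fold threshold. None of the 22 DNA repair genes was called in either direction, with 5 at an adjusted p under 0.05 and a median of 0.00. In the TDEC libraries without a day in their labels, which followed, 68 of these 71 replication and mitosis genes were lower than on day 2 in a fit of its own that shares the day 2 libraries, with a median of −3.58, and Mki67 was at −5.19. In that comparison 9.35% of the 15508 genes tested were lower.

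Among 18 D cyclins and CDK inhibitors 2 were higher and 2 lower, with a median of −0.01. Ccnd2 measured 1043, 1015 and 1128 CPM in 005 and 2956, 3045 and 3056 CPM on day 2, log2 fold change 1.51, SE 0.07, one of the largest gains in reads of any gene. Ccnd1 measured 2264, 2277 and 2723 CPM in 005 and 1862, 1872 and 1793 CPM on day 2, log2 fold change −0.39, SE 0.08, below the fold threshold. Per length, Ccnd1 went from 514 to 391 RPKM and Ccnd2 from 113 to 321 RPKM. The CDK inhibitor Cdkn2b rose (19.3, 20.3 and 23.9 CPM in 005 and 52.9, 47.7 and 61.4 CPM on day 2, log2 fold change 1.35, SE 0.12), Gadd45g fell (−1.74), and Cdkn1c was called lower (−1.59) but lost the call without 005 replicate 2 or 3. Cdkn1a was at −0.30 and Cdkn1b at 0.62. Of 14 tested p53 targets 1 was higher, Sesn1 (1.19), and 2 were lower, Bbc3 (PUMA, −1.69) and Btg2. None of the 3 genes for p53 and its regulators was called.

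Stress and lipid genes had few calls by day 2. Among 24 tested genes of the integrated stress response the cystine transporter Slc7a11 and the lipoprotein receptor Vldlr (1.33) were higher and Trib3 was called lower (−1.17, not without day 2 replicate 3), with Atf4 at −0.24, Ddit3 at −0.45 and a median of −0.10. At an adjusted p under 0.05 without the fold threshold, 9 of the 24 were lower and 3 higher, against 20.2% and 18.8% of all genes tested. None of 24 genes of the unfolded protein response was called in either direction, but 13 were higher at an adjusted p under 0.05 and none lower, among them the chaperones Hspa5 (0.81) and Calr (0.87) and the collagen hydroxylase subunit P4hb (0.85), and the median was 0.35. The same shares of all genes tested, 18.8% higher and 20.2% lower, apply there. Of 27 cholesterol genes Fdps (−1.12) and Mvd (−1.0) were called lower, both calls lost in several alternatives, with 12 lower at an adjusted p under 0.05 and a median of −0.22. At that threshold 20.2% of all genes tested were lower. The cholesterol list summed to 4506, 4511 and 4072 CPM in 005 and 3455, 3450 and 4207 CPM on day 2. Day 2 replicate 3 was thus within the range of 005. None of 20 fatty acid genes was called in either direction, with 10 at an adjusted p under 0.05, a median of 0.17 and Fasn at −0.58 and Scd1 at 0.55. Of 11 tested mitochondrially encoded genes mt-Atp6 was called lower (−1.61), with overlapping groups and a call lost without 005 replicate 2, and mt-Nd1 (−0.17) and mt-Co1 (−0.09) did not pass the test.

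Of 23 inflammatory genes 11 were tested, and the adhesion molecule Vcam1 (5.54, 6.18 and 5.06 CPM in 005 and 34.8, 35.4 and 60.6 CPM on day 2, log2 fold change 2.96, SE 0.23), lipocalin Lcn2 (3.28) and the growth factor Csf1 (1.52) rose, while Serpina3n fell (−1.78). Of 15 tested genes of the interferon response and antigen presentation H2-D1 was called lower (−1.03), not in every alternative, and none was higher. Among members too low to test, the chemokine Ccl5 had 42 counts in 005 and 2 on day 2, a ratio of 20.1 with a counting interval of 5.23 to 171. The interferon-induced genes Ifit1 (19 and 3 counts), Mx1 (10 and 1), Isg15 (29 and 4) and Bst2 (34 and 11) also had fewer counts on day 2, while Ifit3 had more (4 and 8). Of the 6 interferon-induced genes that were tested, none was called, and the median was −0.15. At an adjusted p under 0.05 without the fold threshold, 1 of them was higher and 0 were lower. In the leukocyte list P2ry12 was called higher (1.47) at 0.406 CPM in 005 and 1.14 CPM on day 2, again not in every alternative. The serotonin transporter Slc6a4 had 4 counts in 005 and 3 on day 2.

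Among the genes with the largest changes beyond these lists were several secreted proteins. Ogn (osteoglycin) had 1 count in 005 and 375 on day 2, a ratio of 392 with a counting interval of 69.9 to 15500, and measured 6.54, 5 and 19.4 CPM in the day 2 libraries. Scg2, a granin of secretory vesicles, measured 1.44, 1.08 and 1.36 CPM in 005 and 57, 60.9 and 75.5 CPM on day 2, log2 fold change 5.63, SE 0.18. Loxl2, which crosslinks collagen, measured 8.96, 6.88 and 6.72 CPM in 005 and 124, 119.6 and 99.1 CPM on day 2, log2 fold change 3.92, SE 0.14. Ass1, of arginine synthesis, measured 0.456, 0.309 and 0.0755 CPM in 005 and 9.46, 10 and 28.7 CPM on day 2, and the phosphodiesterase Pde1a (6.11) and the factor Atoh8 (4.85) had the same shape, with day 2 replicate 3 more than 2 times as high as the others. Cd38, which consumes NAD, measured 8.2, 7.65 and 6.95 CPM in 005 and 101, 106 and 98.3 CPM on day 2, log2 fold change 3.74, SE 0.10, and its 3 day 2 libraries were close. Megf10 (4.43), Klhdc7a (4.83), Abca9 (3.87) and Crispld2 (3.75) completed the 20 largest rises with the genes given above.

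The largest fall was in H19, a non-coding RNA expressed from the maternal allele (chr7:142575529-142578143, mm10), at 20.9, 18.5 and 28.3 CPM in 005 and 0.788, 0.82 and 0.259 CPM on day 2, log2 fold change −5.13, SE 0.30. Its neighbour Igf2 measured 4.56, 5.1 and 6.34 CPM in 005 and 0.867, 0.97 and 0.518 CPM on day 2, log2 fold change −2.73, SE 0.31. With Cdkn1c, these were the 3 lower calls among 12 tested imprinted genes, and none was higher. Capn6 (−3.40), the prostaglandin synthase Ptgds (−3.26), the activin subunit Inhbb (−2.86), the adhesion molecules Ntm (−2.67) and Pcdh15 (−2.46), and Nell2 (−2.43) fell as well. Clic5 measured 275, 283 and 296 CPM in 005 and 35.5, 41.4 and 66.7 CPM on day 2, log2 fold change −2.58, SE 0.18, and was among both the steepest falls and the largest losses of reads. The factor Prdm1 (−2.46), the GABA transporter Slc6a11 (−2.36), Rgcc (−2.42), Shf (−2.42), Pex5l (−2.39), Prr18 (−2.36), Adamts17 (−2.23) and Sumo2 (−2.24) were the others of the 20, a count that leaves out clone names such as 1810011O10Rik. Sumo2 measured 146, 138 and 70.7 CPM in 005 and 25.5, 30 and 19.3 CPM on day 2, so that 005 replicate 3 was much lower than its group, and the gene has many processed copies.

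By the number of reads, Igfbp3 gained most, at 570.4, 579 and 589.9 CPM in 005 and 2320.4, 2294 and 3247 CPM on day 2, log2 fold change 2.18, SE 0.12. It binds insulin-like growth factors outside the cell, and Igfbp4 rose as well, at 126, 132 and 154 CPM in 005 and 693, 704 and 846 CPM on day 2, log2 fold change 2.44, SE 0.11. Igfbp5 was called higher (1.14) except without day 2 replicate 1. Besides Ccnd2 and 5 glycolytic enzymes, the spectrin chain Sptan1 (804, 765 and 719.6 CPM in 005 and 1946, 2006 and 2518 CPM on day 2), the sulfotransferase Chst2 (196, 203 and 258 CPM in 005 and 1356, 1426 and 1288 CPM on day 2) and thymosin Tmsb4x (1.23) were among the 10 largest gains. The largest losses were in the nuclear RNA Malat1 (1423, 1567 and 2056 CPM in 005 and 732, 674 and 619.9 CPM on day 2), Gm42418 (−1.0) and Rn18s-rs5 (−1.23), followed by Olig1, Tnc and Olig2. The call of Gm42418 was lost in 9 alternatives. Ptms (−1.01, lost in 7 alternatives), 1810011O10Rik (−3.47) and Fam102b (−1.64) were the others.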

How the data were processed

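Poly(A) RNA of 005 and TDEC day 2, 3 libraries each, was sequenced with a strand-marking kit. The authors deposited raw counts per gene. Tools listed in the submitters' processing notes were featureCounts 1.6.3, HISAT2 2.1.0, Trimmomatic 0.38 and bcl2fastq 2.19, with build mm10. The annotation release, strand setting and treatment of reads that match several places are not given in the sources used here. Of 49585 genes, the 15344 kept by filterByExpr (minimum count 10) were tested with edgeR 4.0.16 (R 4.3.3), TMM scaling and the quasi-likelihood test, with Benjamini-Hochberg adjustment over all tested genes. Calls needed an adjusted p under 0.05 and a fold above 2. Totals were 12049384 to 13642496 counts. On simulated counts over 15017 genes of this comparison, 100 genes were changed 2-fold and 100 were changed 4-fold. All were drawn from genes above a minimum level in 005, so genes at low levels were not covered. Of these, 97% and 100% had an adjusted p under 0.05 in the set direction, without the fold threshold. The median log2 fold change estimated for the 2-fold genes was 0.98, just under the threshold for a call. RPKM used exon lengths of the annotation. Alternatives were other scalings, filters and thresholds, DESeq2 1.42.0, all 15 libraries, a replicate block and leaving out libraries. Genes named were list members by role, the 20 largest rises and falls among non-overlapping calls whose higher group averaged 10 CPM or more, the 10 largest gains and losses in CPM, and genes in the study's text. The 40 lists and the comparison were chosen with earlier results of these data known. The sertraline libraries were not compared here. Some members that the lists count are not reported here by name.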

Additional observations from a re-analysis of the deposited data

How the results depend on the processing

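Without the fold threshold, 2882 genes were higher and 3095 lower, against 821 and 687. Keeping genes with at least 1 count gave 8 higher members of the retinoic acid list in place of 5, and fitting all 15 libraries together gave 7 higher endothelial markers in place of 4. Leaving out 1 library at a time gave 841 to 858 higher and 498 to 691 lower genes. The lowest count, 498, came without 005 replicate 3, and 470 of the 687 lower genes were among it. Same-numbered replicates did not deviate together (correlations −0.07, −0.06 and −0.11), so the numbers were not taken as pairs, and a replicate block gave 785 higher and 617 lower genes. Of the 205 named genes that were called, 168 kept the call in each of the 14 alternatives of scaling, filter, test or libraries that tested them, and none changed sign there. Testing against a fold of 1.5 left 757 higher and 547 lower genes, and single genes were not followed under other thresholds. Genes under the count filter were not tested.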
